A study of Homo sapiens with 6 samples.

Results

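SLCO4C1, CD96, VAT1L, GABRA3, LINC02582 and TMEM154 were among the strongest falls in MDA-MB-231 cells that carried a hairpin against DAXX, and none of them belongs to lipid metabolism. They were selected on the size of that fall, the difference in log2 signal between shDAXX and shControl, out of 22465 genes, from transcript clusters paired with exactly 1 gene symbol. Each of the 6 had 1 such cluster. Their differences between the groups are therefore given as a description, with no test, and the tests were kept for their relatives, partners and genomic neighbours.

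MDA-MB-231 is a line of human triple-negative breast cancer cells with mesenchymal features. Every culture was transduced with lentivirus and selected with puromycin at 2 µg/ml, so the control cells carried a hairpin and the resistance too. The 3 shControl samples expressed a scrambled hairpin and the 3 shDAXX samples a hairpin against DAXX. The shDAXX group rests on 1 hairpin in a stably selected population, and the labels give complete DMEM and 24 hours of culture for both groups. DAXX is a chaperone that deposits histone H3.3 and can activate or repress transcription. It read 7.49, 7.48 and 7.43 on the log2 scale in shControl and 6.69, 6.67 and 6.61 in shDAXX. The difference was -0.81 (SE 0.060, limma adjusted p = 4.9e-04), so residual DAXX signal was present in all shDAXX arrays. Values throughout are log2 array signals made by RMA, and differences are shDAXX minus shControl. Array medians ran from 4.96 to 5.07. Markers of the line stood above the silent range defined below for 7 of 8 genes, SPARC being the exception at 5.33 ± 0.12 and 5.41 ± 0.060. Of 7 markers that the line should lack, 5 were within that range on every array and GATA3 and EPCAM were not. Of 42 tissue-restricted genes that such cells should not transcribe, 36 were measured.

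Most of the 6 genes are best known from other tissues. SLCO4C1 encodes an organic anion transporter of the kidney that carries thyroid hormones and digoxin. CD96 is an immunoglobulin-family receptor of T and NK cells that binds the poliovirus receptor PVR, and GABRA3 is the alpha-3 subunit of the GABA-A receptor, a chloride channel of inhibitory synapses. VAT1L is a relative of VAT1, a quinone reductase-like protein of the medium-chain dehydrogenase family. LINC02582 is a long noncoding RNA that has been described in breast cancer cells as a binder of the deubiquitinase USP7, which stabilises the checkpoint kinase CHK1. TMEM154 is a transmembrane protein of little known function in humans, and in sheep its variants affect susceptibility to a lentivirus.

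Start-site sequences show what stretch of DNA these genes have at their promoters. RefSeq windows on GRCh38.p14, running from 250 bases before to 50 bases after the start, were held for 4 of the 6 genes, namely SLCO4C1, CD96, VAT1L and TMEM154. They are printed because genes that fall together may be compared at their start sites, and because CpG content separates broadly active promoters from tissue-restricted ones. The windows lie at chr5:102296235-102296534 on the minus strand for SLCO4C1, chr3:111541947-111542246 on the plus strand for CD96, chr16:77788314-77788613 on the plus strand for VAT1L and chr4:152679948-152680247 on the minus strand for TMEM154. Capitals mark CpG dinucleotides.
SLCO4C1: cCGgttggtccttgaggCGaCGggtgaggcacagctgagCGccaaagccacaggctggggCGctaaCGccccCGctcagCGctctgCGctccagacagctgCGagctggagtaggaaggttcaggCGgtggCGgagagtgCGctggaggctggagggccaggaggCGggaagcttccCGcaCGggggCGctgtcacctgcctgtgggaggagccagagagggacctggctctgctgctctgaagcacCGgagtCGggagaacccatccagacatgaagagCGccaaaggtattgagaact
CD96: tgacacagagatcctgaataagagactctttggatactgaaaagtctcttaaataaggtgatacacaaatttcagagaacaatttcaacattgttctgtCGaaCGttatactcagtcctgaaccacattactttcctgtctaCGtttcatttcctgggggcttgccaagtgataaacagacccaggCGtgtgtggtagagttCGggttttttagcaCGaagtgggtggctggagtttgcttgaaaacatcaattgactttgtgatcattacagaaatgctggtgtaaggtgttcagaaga
VAT1L: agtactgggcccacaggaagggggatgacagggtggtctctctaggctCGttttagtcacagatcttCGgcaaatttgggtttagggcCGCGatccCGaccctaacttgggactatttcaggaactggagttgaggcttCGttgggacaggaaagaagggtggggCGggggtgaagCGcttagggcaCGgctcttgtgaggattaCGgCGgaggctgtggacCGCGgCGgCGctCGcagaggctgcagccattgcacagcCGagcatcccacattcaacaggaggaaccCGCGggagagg
TMEM154: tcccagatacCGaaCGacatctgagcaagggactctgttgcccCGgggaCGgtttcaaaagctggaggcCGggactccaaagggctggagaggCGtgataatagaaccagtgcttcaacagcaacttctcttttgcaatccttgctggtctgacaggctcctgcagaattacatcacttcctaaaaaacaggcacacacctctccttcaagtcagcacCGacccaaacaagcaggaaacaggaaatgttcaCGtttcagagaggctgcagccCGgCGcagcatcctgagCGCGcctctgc

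The SLCO4C1 window held 20 CpG dinucleotides, the VAT1L window 19, the TMEM154 window 12 and the CD96 window 6. All 35116 promoter windows of the same length had a median of 14. Observed over expected CpG was 0.631 for SLCO4C1, 0.485 for CD96, 0.744 for VAT1L and 0.553 for TMEM154. These 4 ratios lay between the quartiles of all windows, 0.229 and 0.856, around a median of 0.579. The windows of these genes were thus neither CpG islands of the densest kind nor among the CpG-poorest, and GC content ran from 41% in CD96 to 66% in SLCO4C1. Short motifs were searched as exact letters on both strands. TCACNCCAC, a loose form of the sterol response element, was in 0 of the 4 windows and in 1.13% of all windows. CCAAT was in 0 of 4 windows against 34.6% of all, the E-box CACGTG in 0 against 7.26%, and TATAAA in 0 against 11.5%. GGGCGG, the GC box, was in 1 of 4, the VAT1L window at bases 163 to 168 from its 5′ end, against 45.0% of all windows. These are letter matches in short windows and say nothing of binding.

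**Figure D1:**
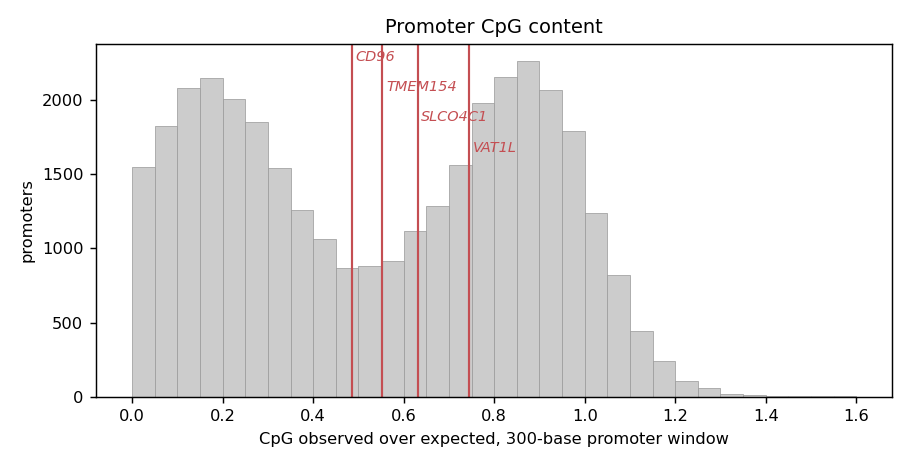
Observed over expected CpG in 300-base promoter windows (x axis, a ratio) against the number of RefSeq windows (y axis). Vertical lines mark SLCO4C1 (0.631), CD96 (0.485), VAT1L (0.744) and TMEM154 (0.553), which all fall between the quartiles of 35116 windows, 0.229 and 0.856.

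To read each gene as expressed or silent, a limit was set on every array from the 36 tissue-restricted genes. It was their 95th percentile, which ran from 5.88 to 6.12 on shControl arrays and from 5.80 to 6.16 on shDAXX arrays. A gene at or below it on an array is called within the silent range there, and one over it above the range. The limit compares different probe sets and is therefore a rough guide, since the table holds no detection calls. On shControl arrays all 6 genes were above the range. On shDAXX arrays GABRA3 was within it on all 3, and the other 5 genes stayed above it on all 3. With limits from the array's background control probe sets or from the highest tissue-restricted gene, 3 of the 5 stayed above on all 3. SLCO4C1 then cleared the limit on 1 or 2 shDAXX arrays, and VAT1L on 2. In bulk RNA, fewer cells with a transcript and less of it per cell cannot be told apart. Of all genes, 43.7% were above the range on every array and 49.1% within it on every array. A move from above it on all shControl arrays to within it on all shDAXX arrays was made by 27 genes (0.120%), and the opposite move by 22 (0.0979%).

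SLCO4C1 read 9.85, 9.95 and 10.01 in shControl and 6.40, 6.24 and 6.69 in shDAXX. Its mean went from 9.94 ± 0.081 to 6.44 ± 0.23 (SD, n = 3), a difference of -3.49 (SE 0.12) or 11.3-fold. The lowest shControl array was 3.16 above the highest shDAXX array, so the groups were far apart. The shDAXX values cleared the silent limit of their own array by 0.61, 0.41 and 0.54. A transporter that stood between the 85.4th and 86.4th percentile of all genes in control arrays thus lay between the 55.8th and 60.9th with the hairpin, a little over the silent range.

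CD96 read 11.37, 11.25 and 11.29 in shControl and 7.75, 7.96 and 8.08 in shDAXX. The means were 11.30 ± 0.061 and 7.93 ± 0.17, a difference of -3.37 (SE 0.096) or 10.4-fold. All shControl arrays were at least 3.17 above all shDAXX arrays. The immune receptor stayed on average 2.00 above the silent limit in shDAXX, so its lowered signal was still that of an expressed gene by this measure. Its range was the 91.9th to 92.6th percentile of all genes in shControl and the 70.6th to 73.4th in shDAXX.

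CD96 is chiefly a gene of T and NK cells, and these cultures are of 1 cell line. The 12 T and NK cell markers written for the check were all within the silent range on every array. Their mean level ran from 4.76 to 4.87 in shControl and from 4.72 to 4.85 in shDAXX. PTPRC, the pan-leukocyte phosphatase CD45, was the 1 marker among them with a call, at 5.44 ± 0.044 against 5.15 ± 0.031 (difference -0.29, limma adjusted p = 0.027), a call that leaving out any array ended (adjusted p 0.066 to 0.087). Of 6 B cell and myeloid markers, 5 were within the silent range on every array and 0 were called by limma, with 0 at an unadjusted p under 0.05 and 0 by the methods' t-test. The part of PTPRC in the CD96 values was not tested, and the defining lymphocyte markers were at the level of silent genes in both groups.

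VAT1L read 9.36, 9.49 and 9.28 in shControl and 6.42, 6.60 and 6.38 in shDAXX. The means of 9.38 ± 0.11 and 6.47 ± 0.12 differed by -2.91 (SE 0.089), or 7.52-fold. The spread was alike in the 2 groups and the gap between them was 2.68. Like SLCO4C1, VAT1L ended near the silent range, 0.63, 0.77 and 0.23 above the limit of its array.

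GABRA3 read 7.83, 8.12 and 7.67 in shControl and 5.23, 5.15 and 5.24 in shDAXX. Its means were 7.87 ± 0.23 and 5.21 ± 0.049, a measured difference of -2.67 (SE 0.12) or 6.35-fold. All 3 shDAXX values lay below the silent limit of their array, by 0.57, 0.68 and 0.92, and the groups were 2.43 apart. Set against the mean limit of 5.93 in place of its own value, the control level was 3.85-fold higher. This bound holds for that limit only. The limits from the background control probe sets and from the highest tissue-restricted gene were higher on every shDAXX array, up to 6.56. They give a smaller bound. Its percentile among all genes went from between 69.7 and 72.7 to between 40.8 and 41.7.

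LINC02582 read 11.75, 11.86 and 11.97 in shControl and 8.96, 9.26 and 9.48 in shDAXX. The means of 11.86 ± 0.11 and 9.23 ± 0.26 differed by -2.63 (SE 0.14), or 6.18-fold. The noncoding RNA had the widest spread of the 6 genes within shDAXX, and the gap between groups was still 2.27. It stayed 3.31 above the silent limit on average, between the 79.9th and 83.2nd percentile of all genes.

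TMEM154 read 10.79, 11.07 and 10.89 in shControl and 8.35, 8.41 and 8.30 in shDAXX. Its means of 10.92 ± 0.14 and 8.35 ± 0.055 differed by -2.56 (SE 0.087), or 5.91-fold, with a gap of 2.38. The transmembrane protein's transcript remained 2.43 above the silent limit on average.

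**Figure D2:**
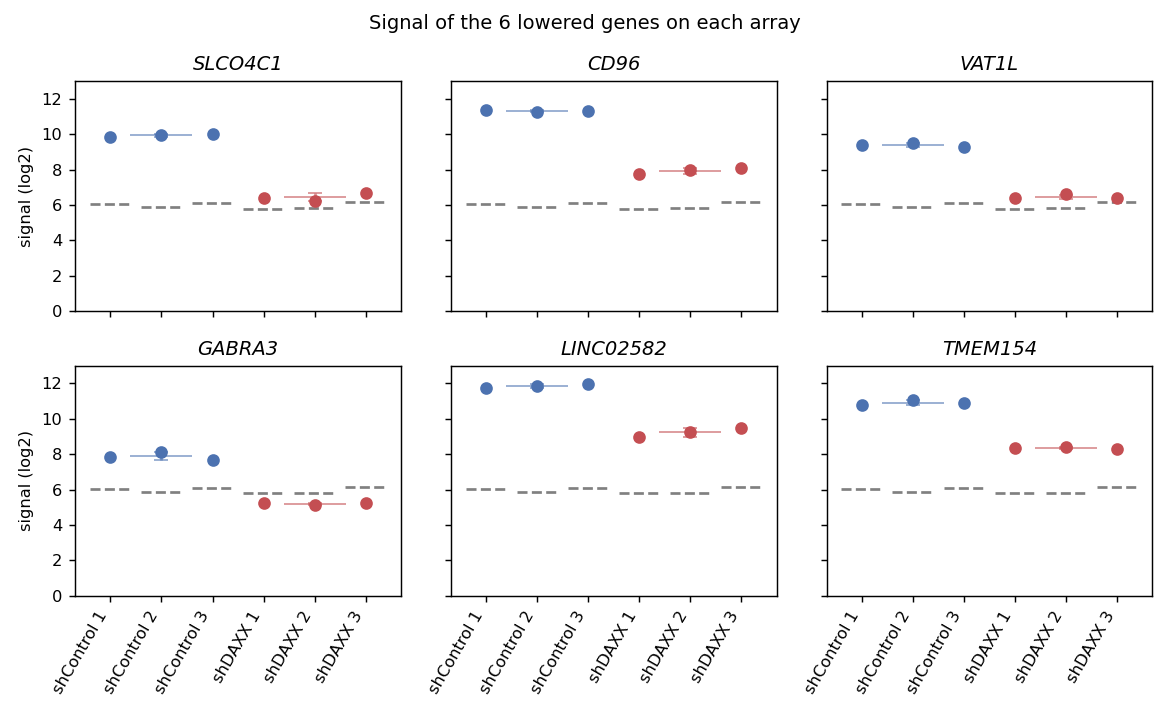
Log2 RMA signal of the 6 genes (y axis, from 0) in the 3 shControl and 3 shDAXX arrays; points are arrays, solid lines are group means with SD and dashed lines mark the silent limit of each array. GABRA3 alone drops under the limit, from 7.87 to 5.21, and the groups of every gene are apart by 2.27 or more.

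Across the 6 genes the median difference was -2.79, where the median over all genes tested was 0.0067. The groups did not overlap for any of the 6, as the rule makes likely, and 14.7% of all genes had every shDAXX array below every shControl array. The measured means differed more than 4-fold in all 6, as in 18 genes in all (0.0801%). For GABRA3 the fall down to the mean limit of 5.93 was 3.85-fold, and it was smaller with the higher limits. Ranked by the fall among all genes they stood at 3, 4, 6, 8, 9 and 10, and the last inside was TMEM154. The next below was ENPP1, a nucleotide pyrophosphatase, at -2.39 (15.75 ± 0.093 against 13.36 ± 0.047), followed by IL13RA2, the decoy receptor of interleukin-13, at -2.24 (6.84 against 4.60). IL13RA2 was within the silent range on all 3 shDAXX arrays too. Set against the same mean limit, its control level was 1.88-fold higher, again a smaller bound with the higher limits. The within-group SD ran from 0.049 to 0.26 over the 6 genes, where the median over all genes was 0.10 in shControl and 0.0971 in shDAXX. The spread was larger in shDAXX for SLCO4C1, CD96, VAT1L and LINC02582 and smaller for GABRA3 and TMEM154. In SLCO4C1, CD96, GABRA3 and LINC02582 the highest shDAXX value was on replicate 3, whereas VAT1L and TMEM154 peaked on replicate 2. The 6 genes lie on 6 different chromosomes (3, 4, 5, 16, 18 and X), and 5 of them code for protein.

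Likeness of pattern was measured as the root mean square distance between gene profiles over the 6 arrays after each was centred on its own mean, in log2 units. The members were selected for a like step between the groups, which by itself makes their profiles close. SLCO4C1 and CD96 were each other's nearest gene at 0.152, and the second for both was INSIG1, the sterol sensor partner that retains SREBP in the endoplasmic reticulum, at 0.157 and 0.221. VAT1L was nearest to the cholesterol synthesis enzymes MSMO1 at 0.121 and HMGCS1 at 0.142. The nearest gene to GABRA3 was TMEM154 at 0.118, followed by HMGCS1 at 0.153. TMEM154 was nearest to ENPP1 at 0.103, with GABRA3 next. LINC02582 had TMEM154 at 0.188 and ENPP1 at 0.196, the farthest nearest gene of the 6. INSIG1, MSMO1, HMGCS1 and ENPP1 are themselves among the 11 largest falls, and a distance of this kind is set mainly by the size of the step, so nothing more is read from it.

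Relatives and partners were then compared in lists written for each member, 98 genes in 8 lists, of which 80 were measured. Over all genes limma called 9.90% at an adjusted p of 0.05, 5.60% lower and 4.30% higher. Of the calls 1257 were lower and 967 higher, which became 1003 and 1195 when array medians were set equal. Among the 80 relatives and partners 7 (8.75%) were lower and 4 higher, and their median difference was 0.0017. The few strong changes lay in the organic anion transporter family and in the MAGEA genes.

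In the SLCO family, which moves bile acids, hormones and drugs into cells, 10 genes beside SLCO4C1 were measured. Of these 3 were lower and 1 higher, and the median difference was 0.05. SLCO1B3, a bile acid and drug importer of the liver, read 10.18, 10.22 and 10.04 in shControl and 8.21, 8.33 and 8.31 in shDAXX. Its difference was -1.86 (SE 0.075, limma adjusted p = 3.5e-05), with no overlap and a signal above the silent range on every array. Its close paralog SLCO1B1 went from 5.97 ± 0.28 to 4.93 ± 0.070 (-1.03, limma adjusted p = 0.0053). It was within the silent range on every shDAXX array and on shControl 3. Its control mean lay among the silent limits of the shControl arrays, 5.88 to 6.12, so no minimum fold can be given. SLCO4A1, the nearest relative of SLCO4C1 by name, went from 8.94 to 8.36 (-0.57, limma adjusted p = 0.0050). SLCO1B3 and SLCO1B1 resemble each other closely in sequence, so their probes may not tell them apart. They also lie side by side on chromosome 12, where 6 of the 10 nearest genes of each were lower. SLCO3A1, a widely expressed prostaglandin and thyroid hormone transporter, moved the other way. It read 6.55, 6.73 and 6.58 in shControl and 7.74, 7.49 and 7.84 in shDAXX (1.07, SE 0.11, limma adjusted p = 0.0015). The family held falls and a rise, and 6 of its 10 genes were within the silent range on every array.

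Thyroid hormone, a cargo of SLCO4C1, has other carriers, converting enzymes and receptors, and 8 of these were measured of which 0 were lower and 2 higher. THRB, the beta receptor of the hormone, rose by 0.40 (limma adjusted p = 0.012). DIO2, the deiodinase that activates the hormone, differed by 0.32 (limma adjusted p = 0.039) at 4.87 ± 0.099 against 5.19 ± 0.047, within the silent range throughout, and lost its call when any array other than shControl 2 was left out (adjusted p 0.092 to 0.12). With the mean of its clusters the difference was 0.08 (limma adjusted p = 0.64). SLC7A5, the amino acid and thyroid hormone carrier with the highest signal in the list, read 12.61 and 12.29 and was not called.

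PVR, the main ligand of CD96, was not called. It read 10.69 ± 0.13 and 10.29 ± 0.15 (-0.39, limma adjusted p = 0.060). Over 10 nectins, nectin-like molecules and their receptors 1 was lower and 0 higher, and the median difference was -0.032. The 1 call was NECTIN1, an adhesion molecule of epithelia, at -0.24 (limma adjusted p = 0.042), and leaving out any array ended it (adjusted p 0.10 to 0.12). CD226, TIGIT and CRTAM, lymphocyte receptors of this ligand family, were within the silent range on every array. PVRIG, another such receptor, was slightly above it on every array, at 6.15 and 6.21, and was not called.

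Around VAT1L, 9 quinone reductases and relatives were measured and 1 was lower, 0 higher, with a median of 0.02. VAT1 itself went from 10.81 to 10.38 (-0.43, limma adjusted p = 0.036), a call that leaving out any array ended (adjusted p 0.0504 to 0.11). Its fall was 0.43 where that of VAT1L was 2.91, and the difference between those was not tested.

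For GABRA3 the other subunits of its receptor gave a plain picture. All 14 GABA-A receptor subunits measured beside it were within the silent range on every array of both groups. None was called by limma, 1 was higher at an unadjusted p under 0.05, 0 passed with the methods' t-test, and the differences ran from -0.17 to 0.36. The highest of them, GABRR2, read 5.61 and 5.49. Genes of the GABA synapse, of GABA synthesis and of chloride transport were called in 0 of 10 cases by limma, with 2 higher at an unadjusted p under 0.05 and 0 by the methods' t-test. Their differences ran from -0.18 to 0.21, and GABARAP, an autophagy and receptor-trafficking protein, was the highest at 13.31 and 13.13. GABRA3 was thus the 1 subunit of 15 with a signal above the silent range, and only in shControl. Of 8 neuronal markers 7 were within the silent range on every array. The other was SYT1, the calcium sensor of synaptic vesicles, which went from 7.53 ± 0.012 to 6.93 ± 0.092 (-0.60, limma adjusted p = 0.0027), and its part in the GABRA3 values was not tested.

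GABRA3 lies at the end of the long arm of chromosome X beside the MAGEA genes, cancer-testis antigens that tumours express and most adult tissues do not. Of 8 MAGEA and CSAG genes measured, 2 were lower and 0 higher, with a median of -0.21. MAGEA6 read 7.88, 8.15 and 7.99 in shControl and 6.73, 6.52 and 6.60 in shDAXX (-1.39, SE 0.094, limma adjusted p = 3.2e-04). MAGEA3 read 7.22, 7.52 and 7.04 against 6.40, 6.39 and 6.41 (-0.86, limma adjusted p = 0.0060). Both kept apart from their controls and both stayed above the silent range in shDAXX, unlike GABRA3. That holds for the main limit. On shDAXX 1 the limits from the background control probe sets and from the highest tissue-restricted gene were 6.56. MAGEA3, at 6.40 there, was within the range by both. The 2 genes are nearly identical in sequence, so each value may hold signal of the other, and another 4 of the 8 genes were within the silent range on every array.

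The span of GABRA3 also holds the microRNA genes MIR105-1, MIR767 and MIR105-2, a group looked at after its values were seen. No source used here says which part of these transcripts the probes match. MIR105-1 read 4.27 and 4.42, MIR767 3.71 and 3.41 and MIR105-2 3.86 and 4.18 in shControl and shDAXX. None of the 3 was called by limma, 0 had an unadjusted p under 0.05, and all 6 means lay below the median row mean of 4.96. Signals this low cannot show a fall. The mature sequences are shown because they identify what the host transcript carries. They are from RefSeq on GRCh38.p14, on the minus strand at chrX:152392265-152392287 and chrX:152393481-152393503, with the seed (bases 2 to 8) in capitals. The seeds differ between the 2.
hsa-miR-105-5p: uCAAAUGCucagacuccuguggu
hsa-miR-767-5p: uGCACCAUgguugucugagcaug

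Transcripts of the reported partners of LINC02582 were above the silent range on every array and moved little. The reported stabilisation of CHK1 concerns protein, which the arrays do not measure. USP7 read 12.22 and 12.29 and CHEK1, the gene of CHK1, 11.11 and 11.27. Of 11 genes of this checkpoint limma called 0 lower and 1 higher, around a median difference of 0.017. At an unadjusted p under 0.05 and by the methods' t-test 3 were higher, and USP7 was among those of the methods' t-test (difference 0.06, adjusted p = 0.044, against 0.57 by limma). CLSPN, the adaptor through which ATR activates CHK1, rose by 0.37 (limma adjusted p = 0.020), a call lost when any array other than shControl 1 was left out (adjusted p 0.052 to 0.071). No list was written for TMEM154, which has few described partners. The 6 markers of the renal proximal tubule, where SLCO4C1 is best known, were all within the silent range on every array.

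**Figure D3:**
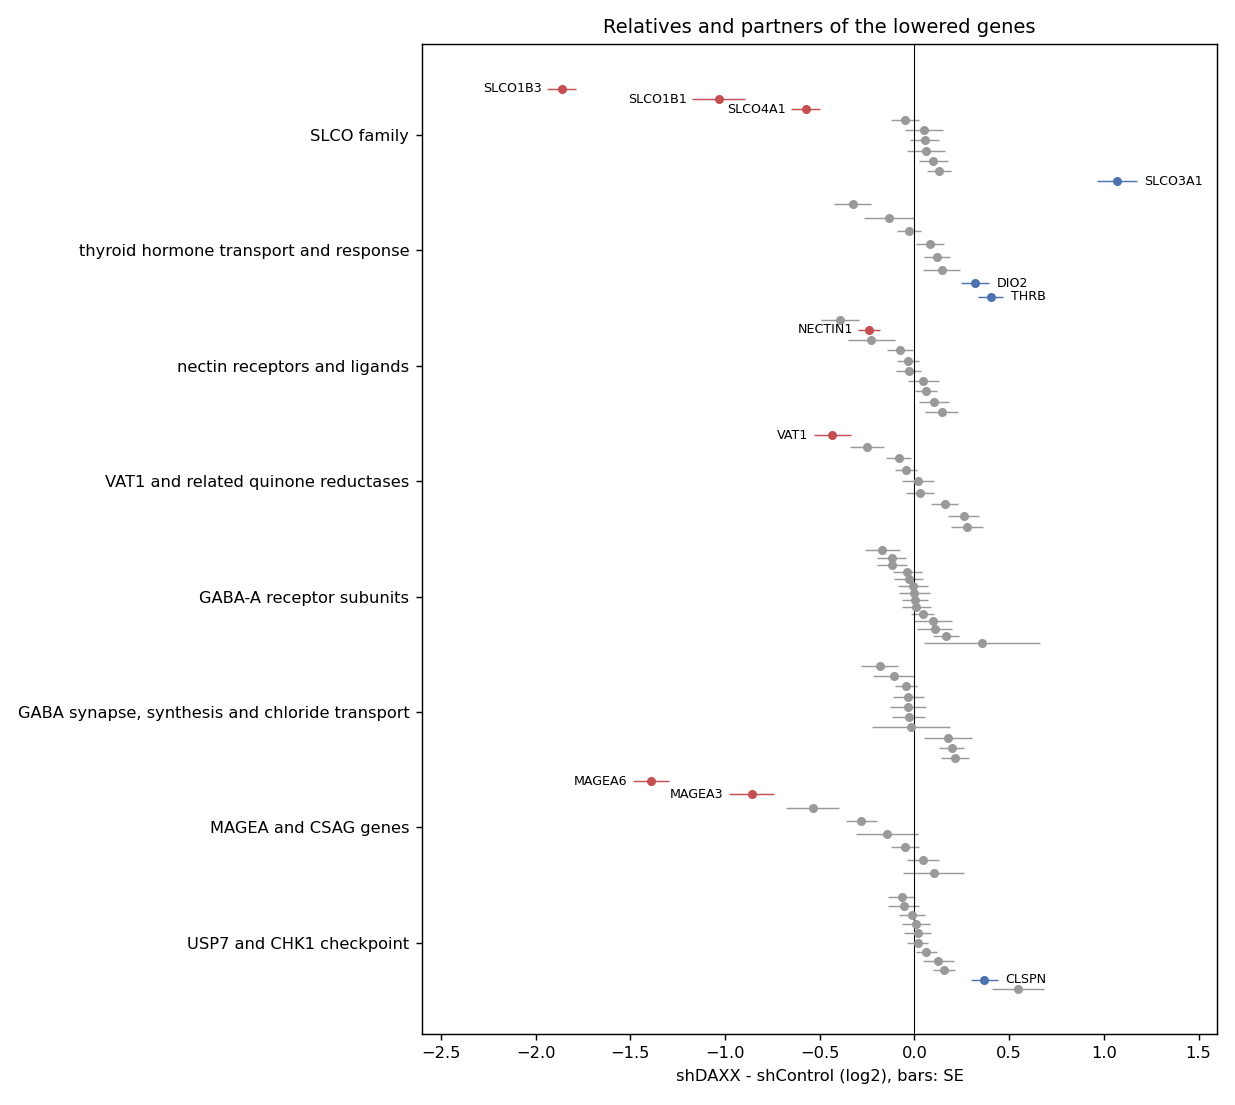
Difference of each relative or partner gene between shDAXX and shControl (x axis, log2, bars are SE) by list (y axis). Red marks limma calls lower and blue calls higher; 7 of 80 are lower, led by SLCO1B3 at -1.86 and MAGEA6 at -1.39, and the 14 GABA-A subunits lie between -0.17 and 0.36.

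Neighbouring genes were compared to see whether a fall was shared along the chromosome. For each member the 5 nearest measured genes on each side in RefSeq order were taken, 60 in all. Of these 8 (13.3%) were lower and 4 higher, beside 5.60% and 4.30% of all genes, and their median difference was 0.0017. Of the 60, 34 were within the silent range on every shControl array and so could not show a large fall, and 23 were above it on all 6 arrays. The largest measured difference was -1.09.

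That neighbour was LINC02864, the gene directly before LINC02582 on chromosome 18. It read 6.31, 6.32 and 6.08 in shControl and 5.02, 5.15 and 5.27 in shDAXX (-1.09, SE 0.098, limma adjusted p = 0.0011), without overlap. All 3 shDAXX values were within the silent range, as was shControl 3. Set against the mean limit of 5.93 on shDAXX arrays, the control level was 1.24-fold higher. With the higher limits less or nothing of this remains. The 2 noncoding genes sit together, and whether their array signals share a transcript was not tested. On the other side and 2 genes away, TIMM21, a subunit of the mitochondrial inner membrane import machinery, rose by 0.50 (limma adjusted p = 0.011). LINC02582 thus had 1 neighbour lower and 1 higher of 10.

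VAT1L had the most lowered neighbours, 4 of 10 with 0 higher and a median of -0.13. They were MON1B, of a complex that matures endosomes, at -0.45 (limma adjusted p = 0.011), NUDT7, a peroxisomal coenzyme A hydrolase, at -0.51 (0.041), WWOX, an oxidoreductase at a common fragile site, at -0.35 (0.014) and CDYL2, a chromodomain protein, at -0.54 (0.011). NUDT7 was within the silent range on every array and lost its call when any array other than shControl 3 was left out (adjusted p 0.086 to 0.12). WWOX read 6.16 in shControl and 5.82 in shDAXX, near the silent limit, and was within the range on shDAXX 2 and 3. The call of WWOX was lost without shControl 1 (adjusted p 0.055) or shDAXX 3 (0.055). With 25 genes on each side, a width added after seeing the data, 6 of 50 were lower, 0 higher and the median was -0.018.

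Beside GABRA3, MAGEA3 was the 1 lowered gene of 10, of which the 3 microRNA genes lie inside GABRA3 itself. Around TMEM154, FHIP1A (-0.63, limma adjusted p = 0.024) and TRIM2, a ubiquitin ligase of neurons (-0.42, limma adjusted p = 0.031), were lower and 0 genes higher. FHIP1A lost its call when any array other than shControl 1 was left out (adjusted p 0.052 to 0.081), and TRIM2 with any other than shDAXX 1 (0.085 to 0.10). FBXW7, a ubiquitin ligase subunit encoded close to TMEM154, read 7.62 and 7.59. With 25 genes on each side 8 of 50 near TMEM154 were lower and 1 higher, and near GABRA3 5 were lower and 0 higher.

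SLCO4C1 and CD96 had no lowered neighbour by limma among 10 each, with 2 and 1 lower at an unadjusted p under 0.05 and 0 for both by the methods' t-test. With 25 genes on each side 1 was lower and 6 higher of 50 near SLCO4C1, and 1 lower and 5 higher near CD96. The lowered gene near SLCO4C1, 19 genes away, was STARD4, a cholesterol transport protein, which went from 9.66 ± 0.038 to 7.51 ± 0.090 (-2.16, limma adjusted p = 1.8e-05). The one near CD96 was CBLB, a ubiquitin ligase, at -0.43 (limma adjusted p = 0.040), a call that leaving out any array ended (adjusted p 0.056 to 0.12). Both were named after their values were seen. Beside SLCO4C1, CHD1, a chromatin remodeller, was higher by 0.28 (limma adjusted p = 0.035) and PAM, an enzyme of peptide hormone amidation, by 0.34 (limma adjusted p = 0.047). Beside CD96, PHLDB2, a protein of the cell cortex, was higher by 0.30 (limma adjusted p = 0.033). Leaving out any array ended these 3 calls (adjusted p 0.078 to 0.11, 0.056 to 0.14 and 0.066 to 0.11). SLCO6A1, the family member next to SLCO4C1 on chromosome 5, differed by 0.05. NECTIN3, the ligand-family gene next to CD96 on chromosome 3, read 11.53 and 11.45, and ZBED2, a zinc finger gene inside the span of CD96, differed by 0.04 within the silent range.

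**Figure D4:**
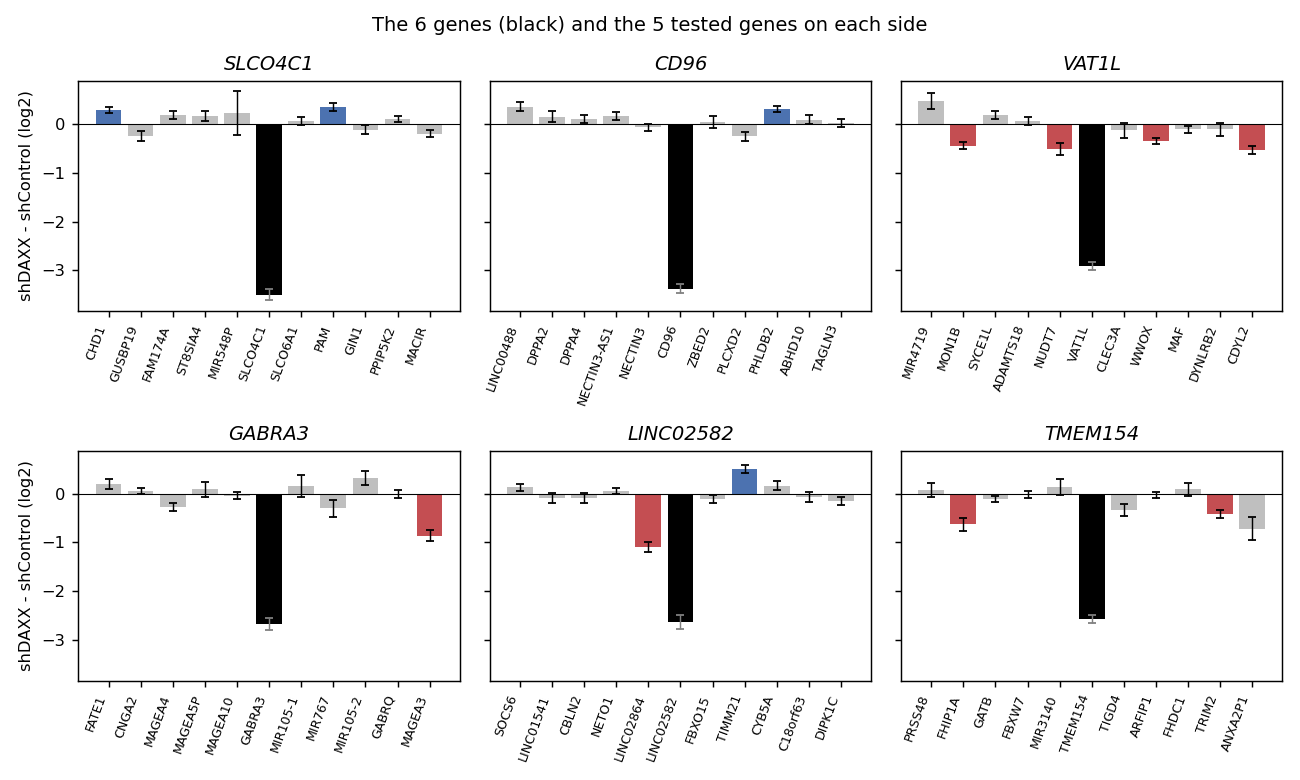
Difference between shDAXX and shControl (y axis, log2) of each of the 6 genes and its 5 measured neighbours on each side in RefSeq gene order (x axis, gene by gene). Black marks the members, red limma calls lower, blue calls higher, and error bars are SE. The measured differences of the members run from -2.56 to -3.49, and the 60 neighbours include 8 limma calls lower, among them LINC02864 at -1.09 beside LINC02582.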

How the data were processed

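RNA of 3 shControl and 3 shDAXX cultures of MDA-MB-231 was hybridized to 1-colour Affymetrix human transcriptome arrays, 1 per culture, from 200 ng of total RNA each. Groups and replicate numbers came from the sample titles. The submitters call the replicates biological, and it is not given whether they came from separate transductions, so p-values measure the spread between these cultures. The authors deposited log2 signals made by RMA, which corrects background, normalizes between arrays and summarizes probes, with Affymetrix Expression Console named in the submitters' processing notes. The log base was read from the values (1.88 to 19.52), and the version, the array's genome build and whether the study's batch correction was applied are not given in the sources used here. RMA shrinks differences near background, so low signals understate a change. No column of authors' comparisons was used.

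Of 70523 rows, 67528 were transcript clusters, and 23781 of these had exactly 1 symbol, 1543 several and 42204 none in the annotation. Gene IDs of 21497 clusters matched RefSeq (GRCh38.p14), and 0 symbols changed. The brightest cluster was kept where a gene had more than 1 (479 genes), which left 22465 genes. limma 3.58.1 under R 4.3.3 compared the groups (lmFit and eBayes, two-sided), with Benjamini-Hochberg adjustment over all genes and a threshold of 0.05. Described values used Python 3.11.15. An exact permutation test of 3 against 3 arrays cannot go below p = 0.1 and was not used. The fit was tested on simulated data. Correlations between arrays were 0.996 to 0.997 within groups and 0.991 to 0.992 between them, with 0 identical pairs. Precision is limited by the number of arrays.

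Named genes are the members, DAXX, up to 4 called genes and the highest gene of each list, the nearest and the called neighbours, the 2 nearest genes by profile and the 2 next falls. Other genes named are markers and genes of the lists, picked after their values were seen. The members and lists were chosen with earlier results of these data known. Alternatives were quantile normalization, equal array medians, a dim-gene filter, other cluster choices, trend and robust eBayes, a replicate block, the methods' t-test (unpaired), other silent limits and leaving out each array.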

Additional observations from a re-analysis of the deposited data

How the results depend on the processing

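The median difference of the 6 genes was -2.79 and ran from -2.86 to -2.74 when any 1 array was left out, and no other setting moved it or any member's difference beyond the spread between replicates. All 6 genes stayed above every silent limit tried in shControl. GABRA3 was within the silent range in shDAXX for the main limit, the background control probe sets, the highest silent gene and the olfactory receptor genes, and with the median row mean of 4.96 the count of silent members went from 1 to 0. The 5 genes above the range on every shDAXX array became 3 with the background control probe sets and 3 with the highest silent gene, by SLCO4C1 and VAT1L.

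Counts depended more on the setting. Of all genes, 1257 lower became 494 with every transcript cluster tested, 811 with the methods' t-test and 722 to 857 without 1 array. The 967 higher became 308 with every cluster and 515 to 609 without 1 array. The 7 lowered relatives became 4 with the methods' t-test, 4 without the SLCO family and 5 to 6 without 1 array, and the 4 higher ones became 1 with every cluster and 2 to 3 without 1 array. The 8 lowered neighbours became 2 with every cluster, 3 with the methods' t-test, 4 without the neighbours of VAT1L, 24 of 300 with 25 genes on each side and 4 to 6 without 1 array. The 4 higher neighbours became 0 with every cluster, 15 with 25 genes on each side and 1 to 3 without 1 array. The settings on 25 genes, on VAT1L and on the SLCO family were chosen after seeing the data. Every cluster as a setting tests more features, and the cause of the other moves was not tested.

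With the replicate number as a block, 606 genes were higher and 868 lower, 6 relatives and 6 neighbours were lower and 1 neighbour was higher. Deviations of same-numbered arrays had correlations of -0.0906, 0.221 and 0.0807, and those of arrays with unlike numbers ran from -0.217 to 0.131. With 3 arrays per group these values cannot settle whether the numbers pair the cultures.

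Of 32 called genes named beside the members, 13 kept their call under all 14 alternatives, among them DAXX, SLCO1B3, SLCO3A1, SLCO4A1, MAGEA6 and LINC02864. The 13 also include INSIG1, MSMO1, HMGCS1, ENPP1 and IL13RA2, named for a large fall or a profile like a member's. STARD4, named after its value was seen, is in the count too. The way these genes were named made their calls likely to hold. MAGEA3 and SLCO1B1 missed the threshold with the methods' t-test alone (adjusted p 0.052 for both). MON1B, THRB and TIMM21 missed it with every cluster alone (0.071, 0.081 and 0.061), and CDYL2 in both settings (0.053 and 0.059). With 3 arrays per group and compressed signals near background, small changes in dim genes may be missed.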
